A study of Mus musculus with 15 samples.

Results

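The 10 genes described here belong to the type 1 programme of T cells. They were taken as a named list, Tbx21, Eomes, Stat4, Il12rb1, Il12rb2, Il18r1, Il18rap, Ifng, Ifngr1 and Cxcr3, and each has a row among the 24015 genes of the authors' deposited table of counts. Type 1 immunity is the arm of the immune response that meets viruses and intracellular microbes. Interleukin 12 acts through its receptor on STAT4, interleukin 18 acts through a receptor of its own, and together they drive release of the cytokine interferon gamma. The transcription factor T-bet, the product of Tbx21, turns on the gene of that interferon, which binds a receptor found on many cell types. Regulatory T cells (Tregs), which hold other T cells in check, can switch on parts of the same programme, among them T-bet and the chemokine receptor CXCR3.

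RNA was read from Tregs of adult C57BL/6 mice in which Foxp3, the lineage-defining gene of Tregs, drives both Cre and an enhanced yellow fluorescent protein, here YFP. The sort took CD45+CD3+CD4+YFP+ cells. There were 15 libraries in 5 groups of 3. The first group held Foxp3 cre-eyfp Rora fl/fl Tregs, here called cKO, from skin treated with MC903, and the second held Foxp3 cre-eyfp Tregs, here called WT, from MC903-treated skin. The others held cKO Tregs from untreated skin, WT Tregs from untreated skin, and WT Tregs from skin-draining lymph nodes (LN). Rora encodes the nuclear receptor ROR-alpha, and its floxed alleles are cut only in cells that make Cre, those where Foxp3 is on. Both genotypes carry the Foxp3 cre-eyfp allele. MC903, a relative of vitamin D, causes a dermatitis when put on skin. It was given in ethanol to the ears every other day, 4 times in all. The treated skin was ears alone and untreated skin was back skin with ears, so the site moved with the treatment, and no skin given ethanol alone was analysed here. Skin went through 90 minutes of enzyme digestion and the nodes were homogenised with none stated, so digestion moved with the tissue. The titles call the replicates biological, and nothing says how many mice made each one, so the p-values measure only the spread between these samples.

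The promoters of the 4 members on which the results turn most are shown here, because Tbx21 and Ifng were low together in MC903-treated skin, Stat4 was high there, and Cxcr3 was low in cKO cells. The table held 2 promoters of Stat4, and the first is printed. Each line holds the 250 bases before the start of transcription, 5′ to 3′ on the strand of the gene, from RefSeq on GRCm38.p6. Capitals mark a match to a motif. The motifs searched on both strands were a T-box element (GGTGTGA), the ROR element that ROR-alpha binds (TAGGTCA) and a STAT element (TTCNNNGAA).
Tbx21, chr11:97115332-97115581, minus strand: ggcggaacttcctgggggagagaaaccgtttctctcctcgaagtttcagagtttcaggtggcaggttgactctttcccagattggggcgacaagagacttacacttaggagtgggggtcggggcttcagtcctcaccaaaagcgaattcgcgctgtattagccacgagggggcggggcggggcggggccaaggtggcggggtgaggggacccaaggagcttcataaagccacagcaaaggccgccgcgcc
Ifng, chr10:118440796-118441045, plus strand: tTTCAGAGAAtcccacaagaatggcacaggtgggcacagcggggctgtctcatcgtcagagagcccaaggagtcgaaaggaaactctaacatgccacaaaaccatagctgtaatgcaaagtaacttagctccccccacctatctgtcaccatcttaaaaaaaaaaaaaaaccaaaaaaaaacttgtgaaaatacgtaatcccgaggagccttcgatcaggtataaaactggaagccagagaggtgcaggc
Stat4, chr1:51986898-51987147, plus strand: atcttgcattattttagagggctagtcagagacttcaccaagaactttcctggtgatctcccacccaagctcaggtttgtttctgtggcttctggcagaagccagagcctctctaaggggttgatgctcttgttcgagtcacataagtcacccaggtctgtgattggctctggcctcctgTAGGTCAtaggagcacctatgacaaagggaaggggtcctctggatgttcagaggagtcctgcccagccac
Cxcr3, chrX:101734148-101734397, minus strand: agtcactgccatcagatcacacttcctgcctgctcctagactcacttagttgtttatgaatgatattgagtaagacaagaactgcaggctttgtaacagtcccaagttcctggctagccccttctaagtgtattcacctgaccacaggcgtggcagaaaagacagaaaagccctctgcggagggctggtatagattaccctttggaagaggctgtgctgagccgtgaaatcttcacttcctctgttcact
The RefSeq table held 12 promoters for 9 of the 10 members, and Il12rb1 had no entry. The search window ran from 250 bases before the start to 50 after it. The ROR element was found in 2 of the 12 promoters, against 2.61% of all 32851 promoters in the table. It lay 70 bases before the first start of Stat4, whose second promoter held none of the motifs, and, on the other strand as TGACCTA, 17 bases after the start of Ifng. The STAT element was in 3 of the 12, those of Ifng, Il12rb2 and the third promoter of Il18r1, against 8.30% of all promoters. The T-box element was in 0 of the 12, against 3.98% of all. A match is a run of letters and shows neither binding nor regulation. No motif overlapped another within these windows.

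Total counts were 19.8 to 27.7 M per library, M being the mega prefix. Levels are given as counts per M of the scaled library size (CPM). All 10 members were among the 13578 genes that passed the filter on low counts, but Eomes passed only through the LN libraries and Il12rb2 was close to the floor everywhere. These 2 are given as counts, with no call, and counts and medians of members cover the other 8. PC1 held 45.0% of the variance over all 15 libraries. Rora had 632, 492 and 473 CPM in cKO and 813, 739 and 812 CPM in WT MC903 skin, and 822, 1074 and 1199 CPM in cKO and 1327, 1341 and 1510 CPM in WT untreated skin. In both treatments the cKO libraries lay below the WT ones without overlap, and much transcript remained. Gene counts do not tell floxed from other exons. Foxp3 was between 110 and 202 CPM in the skin libraries and between 16.2 and 41.8 CPM in the LN libraries. The defining gene of Tregs was thus read in all 15 libraries, at its lowest in LN. The summed CPM of 8 Treg markers was 6436 to 8602 over the skin libraries and 4476 to 5528 over the LN libraries, and that of 9 mast cell, basophil and granulocyte markers was 15.6 to 37.8 over the skin libraries and 6.25 to 8.79 over the LN libraries.

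Ranked by CPM per kilobase of exon, the scale on which levels of different genes can be set side by side, Ifngr1 led in every group, with means of 711 in cKO MC903 skin, 669 in WT MC903 skin, 633 in cKO untreated skin, 660 in WT untreated skin and 122 in LN. Stat4 was second in the 4 skin groups but for a near tie in WT untreated skin, where Cxcr3 stood at 35.72 CPM per kilobase and Stat4 at 35.69. In LN Cxcr3 was second, at 65.02 CPM per kilobase. Il12rb2 did not exceed 0.234 CPM per kilobase in any group mean, and Eomes did not exceed 0.362. Of the interleukin 12 receptor chains, nearly all transcript was of the shared chain Il12rb1, at 5.96 to 10.48 CPM per kilobase, and Tbx21 held 1.41 to 18.93 CPM per kilobase.

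The order of the group means in CPM differed between members. Tbx21 averaged 47.1 ± 14.1 in cKO untreated skin, 30.8 ± 7.07 in WT untreated skin, 12.5 ± 3.22 in LN, 10.2 ± 2.03 in cKO MC903 skin and 3.50 ± 0.608 in WT MC903 skin (SD, n = 3 each). In that order the first pair of neighbours and the pair of LN and cKO MC903 skin overlapped, and the others did not. Ifng had the same order, 27.1 ± 1.01, 20.05 ± 2.16, 5.81 ± 1.74, 5.02 ± 2.67 and 1.77 ± 1.47 CPM, with overlap between LN and cKO MC903 skin and between both MC903 groups. Stat4 ran from 278 ± 24.6 CPM in cKO MC903 skin and 251 ± 37.7 in WT MC903 skin, which overlapped, down to 155 ± 31.9 in LN, 141 ± 10.9 in cKO untreated skin and 112 ± 41.8 in WT untreated skin, which also overlapped as neighbours. Cxcr3 ran from 112.5 ± 22.2 CPM in LN through 61.8 ± 5.56 in WT untreated skin and 47.4 ± 6.46 in WT MC903 skin to 34.6 ± 7.39 in cKO MC903 skin and 33.9 ± 6.80 in cKO untreated skin, and of its neighbours only the last pair overlapped.

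**Figure D1:**
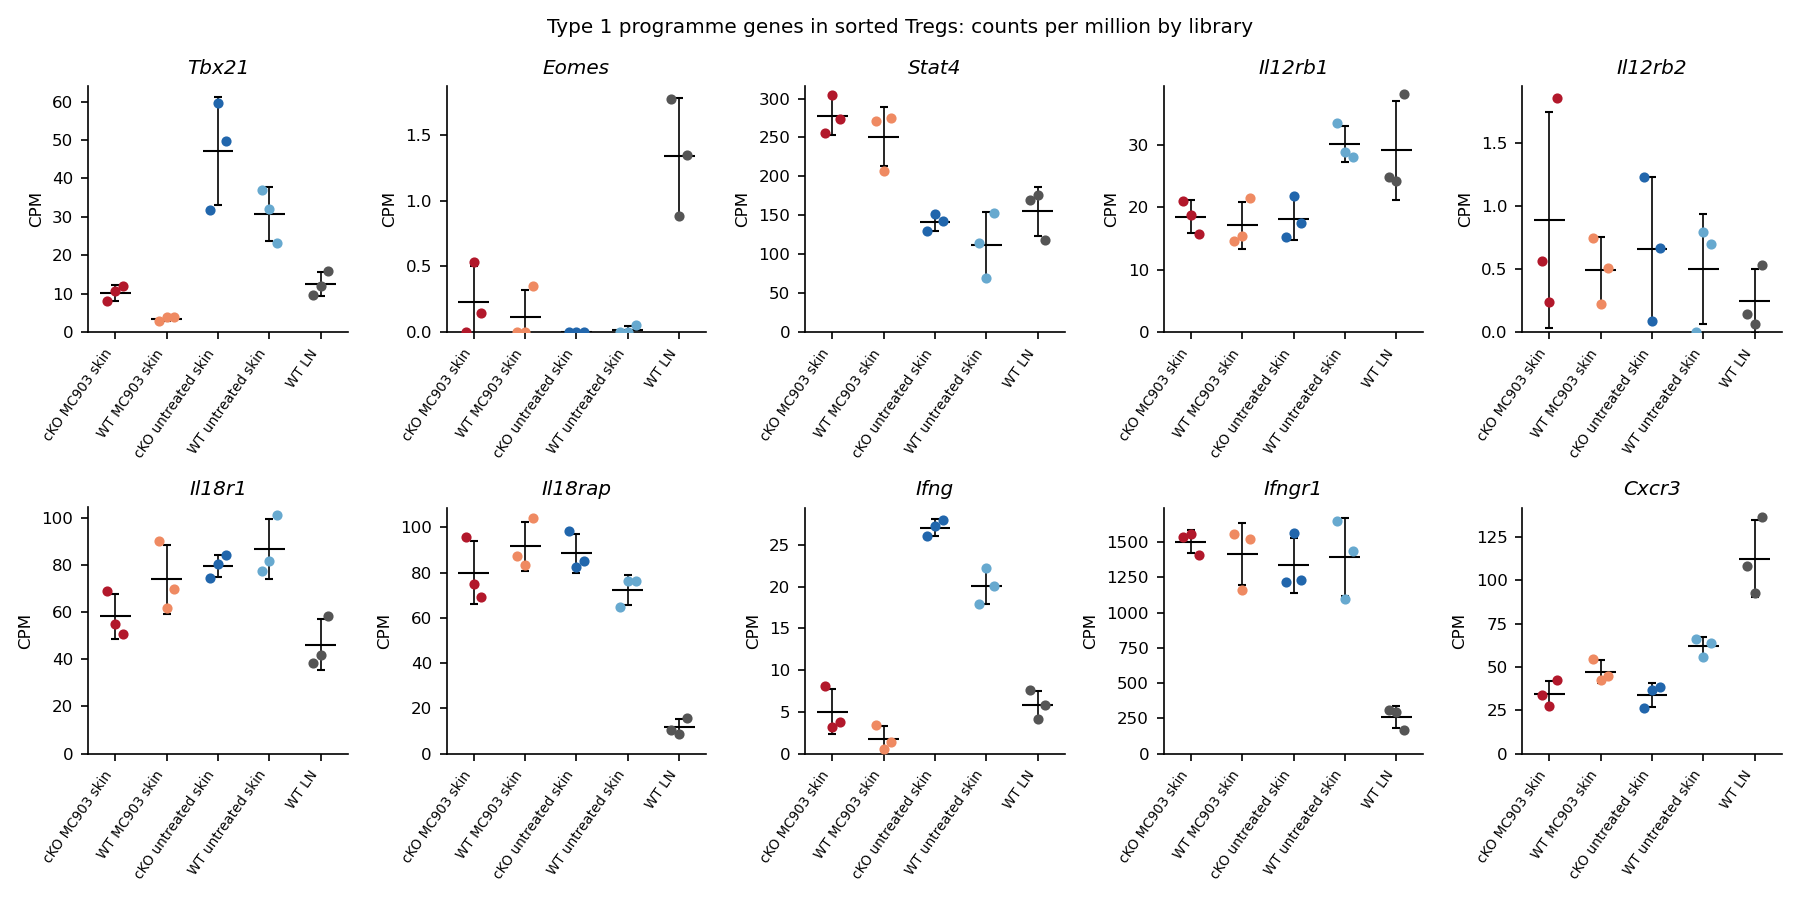
CPM of each of the 10 type 1 programme genes in every library, 1 panel a gene with its own axis, groups along the bottom. Points are libraries, the long line is the mean and the bar the SD of 3. Tbx21 and Ifng are highest in untreated skin, Stat4 in MC903 skin, and Cxcr3 in LN, where Ifngr1 and Il18rap are lowest.

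WT Tregs of untreated skin were set against WT Tregs of LN to ask how the programme differs between tissue and node. Skin Tregs had more transcript of the transcription factor Tbx21, of both chains of the interleukin 18 receptor, and of Ifng and its receptor Ifngr1, and less of Cxcr3. By edgeR's quasi-likelihood test, adjusted by Benjamini-Hochberg, 5 of the 8 members with enough counts rose and 1 fell in skin, where a gene is called at an adjusted p under 0.05. Among all genes tested 57.6% were called, 28.8% higher and 28.8% lower, so most genes differ between these tissues and the share of members called was not far from that of genes in general. The median log2 change was 1.10 over these 8 and 0.01 over all genes. For 6 of them the 2 groups of libraries did not overlap, against 63.4% of all genes.

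Tbx21, which encodes T-bet, the factor that sets the type 1 fate, had 37.1, 32.1 and 23.2 CPM in skin and 9.66, 11.9 and 16.005 CPM in LN. The lowest skin library lay above the highest LN library, and the gene rose in skin by a log2 change of 1.30 ± 0.27 (SE over 3 libraries per group, adjusted p = 6.78e-04 by edgeR). Eomes, a related T-box factor of killer cells and memory cells, gave 0, 0 and 1 counts in skin and 50, 28 and 43 counts in LN. The ratio of the summed counts, skin over LN, was 0.0121 (95% interval 3.05e-04 to 0.0689, counting error only). Since Eomes was kept only for its counts in LN, its direction is a description with no test. Stat4, the signal transducer of the interleukin 12 receptor, had 114, 69.6 and 153 CPM in skin and 170, 176 and 118 CPM in LN. These ranges overlap and the log2 change of -0.46 ± 0.22 missed the threshold (adjusted p = 0.0836 by edgeR). It passed without LN replicate 3 (0.0400) or WT skin replicate 3 (0.00837), and with limma-voom on all libraries (0.0282).

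Of the receptor genes, Il18rap, the accessory chain of the interleukin 18 receptor, differed most. It had 64.8, 76.3 and 76.2 CPM in skin and 10.5, 8.66 and 15.8 CPM in LN, a 6.19-fold rise with a log2 change of 2.63 ± 0.20 (adjusted p = 3.36e-08 by edgeR). Il18r1, the chain that binds the cytokine and the chromosome 1 neighbour of Il18rap, had 77.5, 81.5 and 101 CPM in skin and 38.4, 41.9 and 58.4 CPM in LN. It rose by 0.91 ± 0.18 on the log2 scale (adjusted p = 6.17e-04 by edgeR), and again the libraries did not overlap. The log2 ratio of Il18rap to Il18r1 counts within a library was -0.25 ± 0.16 in WT untreated skin and -2.01 ± 0.23 in LN (SD, n = 3 each), so the 2 chains changed by unequal amounts. Il12rb1, the receptor chain shared by interleukins 12 and 23, had 33.4, 28.8 and 28.1 CPM in skin and 24.9, 24.2 and 38.2 CPM in LN, which overlap, with a log2 change of 0.05 ± 0.22 (adjusted p = 0.857 by edgeR). Il12rb2, the chain particular to interleukin 12, gave 0, 18 and 13 counts in skin and 4, 2 and 17 counts in LN, which overlap.

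Ifng, the interferon gene itself, had 17.9, 22.2 and 20.1 CPM in skin and 7.56, 4.09 and 5.77 CPM in LN. All skin libraries lay above all LN libraries and the gene was 3.45-fold higher (log2 change 1.79 ± 0.46, adjusted p = 0.00373 by edgeR). Ifngr1, the chain of the interferon gamma receptor that binds the cytokine, had 1646, 1098 and 1436 CPM in skin and 310, 295 and 167 CPM in LN, a 5.42-fold rise (log2 change 2.44 ± 0.22, adjusted p = 1.59e-07 by edgeR). Cxcr3, the receptor that draws type 1 cells towards interferon-induced chemokines, went the other way, with 66.2, 55.6 and 63.7 CPM in skin and 108, 92.7 and 137 CPM in LN. It fell by 0.86 ± 0.19 on the log2 scale (adjusted p = 0.00133 by edgeR). The log2 ratio of Tbx21 to Cxcr3 counts was therefore -1.03 ± 0.37 in skin and -3.18 ± 0.28 in LN (SD, n = 3 each). The authors' deposited table of the same comparison, read as skin over LN, lists log2 changes of 1.30 for Tbx21, 2.63 for Il18rap, 0.94 for Il18r1, 1.68 for Ifng, 2.43 for Ifngr1 and -0.81 for Cxcr3. For Stat4 and Il12rb1 it lists -0.41 and 0.09. Its values for Eomes and Il12rb2, given here as counts only, are left out.

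Of 40 further type 1 partners and effectors, 18 were higher and 8 lower in skin. They included Id2, an inhibitor of E-protein transcription factors (log2 change 5.03 ± 0.18, SE), the protease gene Gzmb (6.40 ± 0.29) and the chemokine receptor gene Cxcr6 (4.37 ± 0.24). Of 24 tested interferon gamma response genes, 6 were higher and 10 lower, with a median log2 change of -0.24. Cxcl10, a ligand of CXCR3, rose by 2.88 ± 0.26, and the immunoproteasome genes Psmb9 and Psmb8 fell by 2.26 ± 0.21 and 1.34 ± 0.14 on the log2 scale. Of the other members of the interleukin 1 receptor family cluster on chromosome 1, which holds Il18r1 and Il18rap, 4 were tested, 2 rose and 1 fell. Il1rl1, the interleukin 33 receptor, rose by 4.88 ± 0.18 and the decoy receptor gene Il1r2 by 1.18 ± 0.20, while Il1rl2 fell on sparse counts. All 12 genes of Treg identity were called, 7 higher and 5 lower, with the checkpoint receptor gene Ctla4 higher by 3.52 ± 0.15, Tnfrsf4, which encodes OX40, higher by 2.41 ± 0.16 and Nrp1, which encodes neuropilin 1, lower (-2.59 ± 0.17). Of 15 tested type 2 genes 13 were higher and 1 lower, among them, besides Il1rl1, the repair factor gene Areg (6.20 ± 0.27) and Stat5a (1.82 ± 0.14). Gata3, which sets the type 2 fate, rose by 1.51 ± 0.13 on the log2 scale. Of 12 type 17 genes 6 were higher and 1 lower, with Stat3 higher by 2.23 ± 0.14, Batf by 1.90 ± 0.16 and Ahr by 2.27 ± 0.22. As 57.6% of all genes tested were called in this comparison, calls in a list were common and are not read as a trait of a programme. In bulk RNA, fewer expressing cells and less RNA per cell cannot be told apart. The summed CPM of 9 B cell markers was 8.46 to 13.4 in WT untreated skin and 192 to 712 in LN, and that of 19 markers of CD8, NK, gamma-delta T and innate lymphoid cells was 13.9 to 17.8 in WT untreated skin and 39.6 to 64.5 in LN. Of these 19 markers 7 were tested, 0 rose and 3 fell in skin. Cd8a, for example, had 130 to 477 counts in LN libraries and 0 to 35 in WT untreated skin. A list gene or marker that passed the filter through a single tissue could only be called higher there. The counts of list genes and markers called here and below are therefore descriptions. Ncr1, the defining NK marker, was at 0 counts in all 12 skin libraries. Markers of skin cells moved the other way. The summed CPM of 12 keratinocyte markers was 280 to 650 in WT untreated skin and 15.9 to 18.6 in LN, and of the 11 tested 6 rose and 1 fell. Of 10 tested fibroblast and endothelial markers 6 rose and 1 fell, although the summed CPM of the list overlapped, at 95.9 to 180 in WT untreated skin and 112 to 156 in LN. The part of these cells in the differences was not tested.

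MC903-treated and untreated skin were compared within each genotype to ask how the programme stands in inflamed skin. In both genotypes Tbx21 and Ifng fell and Stat4 rose, while both interleukin 18 receptor chains, Ifngr1 and Cxcr3 were not called. In cKO Tregs 1 of the 8 members with enough counts rose and 2 fell by edgeR's quasi-likelihood test, adjusted by Benjamini-Hochberg, against 11.3% of all genes called, 5.96% higher and 5.30% lower. In WT Tregs 1 rose and 3 fell, against 10.5% of all genes, 5.03% higher and 5.44% lower. The median log2 change over these 8 was -0.06 in cKO and -0.31 in WT, and over all genes -0.01 in cKO and 0.01 in WT. The libraries of the 2 treatments did not overlap for 4 members in cKO, against 33.4% of all genes, and for 6 in WT, against 28.2%.

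Tbx21 in cKO Tregs had 7.996, 10.7 and 11.97 CPM in MC903 skin and 31.8, 59.6 and 49.9 CPM in untreated skin. It was 4.61-fold lower in treated skin (log2 change -2.20 ± 0.28, SE over 3 libraries per group, adjusted p = 2.15e-04 by edgeR). In WT Tregs it had 2.80, 3.83 and 3.88 CPM in MC903 skin and 37.1, 32.1 and 23.2 CPM in untreated skin, and was 8.78-fold lower (log2 change -3.13 ± 0.29, adjusted p = 2.43e-05 by edgeR). In neither genotype did treated and untreated libraries overlap.

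Ifng in cKO Tregs had 8.08, 3.20 and 3.77 CPM in MC903 skin and 26.0, 27.2 and 28.005 CPM in untreated skin, and was 5.38-fold lower in treated skin (log2 change -2.43 ± 0.47, adjusted p = 0.00447 by edgeR). In WT Tregs it had 3.40, 0.557 and 1.36 CPM in MC903 skin and 17.9, 22.2 and 20.1 CPM in untreated skin, and was 11.3-fold lower (log2 change -3.50 ± 0.50, adjusted p = 5.72e-04 by edgeR). All treated libraries lay below all untreated ones in both genotypes.

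Stat4 moved the other way. In cKO Tregs it had 256, 304 and 273 CPM in MC903 skin and 129, 151 and 142 CPM in untreated skin, a 1.97-fold rise (log2 change 0.98 ± 0.22, adjusted p = 0.0113 by edgeR). The WT Tregs had 271, 208 and 274 CPM in MC903 skin and 114, 69.6 and 153 CPM in untreated skin, a 2.23-fold rise (log2 change 1.16 ± 0.22, adjusted p = 0.00434 by edgeR). All treated libraries lay above all untreated ones in both genotypes. The cKO call ended without cKO MC903 replicate 2 (adjusted p = 0.0511).

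Il12rb1 in cKO Tregs had 21.0, 18.7 and 15.7 CPM in MC903 skin and 15.2, 21.7 and 17.4 CPM in untreated skin, which overlap (log2 change 0.03 ± 0.22, adjusted p = 0.957 by edgeR). In WT Tregs it had 14.6, 15.3 and 21.4 CPM in MC903 skin and 33.4, 28.8 and 28.1 CPM in untreated skin, and fell by 0.81 ± 0.22 on the log2 scale (adjusted p = 0.0284 by edgeR). The WT libraries did not overlap, but the call ended without WT MC903 replicate 1 or 2 (0.126 and 0.0972) or WT untreated replicate 1 or 2 (0.0801 and 0.0536), and with only the compared groups in the fit (0.0673). Il12rb2 gave 13, 5 and 39 counts in cKO MC903 skin and 29, 2 and 17 in cKO untreated skin, and 20, 6 and 13 counts in WT MC903 skin and 0, 18 and 13 in WT untreated skin. Its counts overlapped in both genotypes. Eomes gave 0, 11 and 3 counts in cKO MC903 skin and 0, 0 and 0 in cKO untreated skin, where a count of 0 over the group allows up to 0.0414 CPM, and 0, 0 and 9 counts in WT MC903 skin and 0, 0 and 1 in WT untreated skin.

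The interleukin 18 receptor genes were not called in either genotype. Il18r1 in cKO Tregs had 68.7, 55.1 and 50.6 CPM in MC903 skin and 74.4, 80.2 and 84.1 CPM in untreated skin, which do not overlap (log2 change -0.45 ± 0.18, adjusted p = 0.124 by edgeR), and it passed with limma-voom (0.0412). In WT Tregs it had 90.0, 61.8 and 69.8 CPM in MC903 skin and 77.5, 81.5 and 101 CPM in untreated skin, which overlap (log2 change -0.23 ± 0.18, adjusted p = 0.471 by edgeR). Il18rap in cKO Tregs had 95.7, 74.8 and 69.3 CPM in MC903 skin and 98.3, 82.3 and 85.1 CPM in untreated skin, which overlap (log2 change -0.15 ± 0.19, adjusted p = 0.675 by edgeR). The WT Tregs had 87.4, 83.2 and 104 CPM in MC903 skin and 64.8, 76.3 and 76.2 CPM in untreated skin, which do not overlap (log2 change 0.34 ± 0.19, adjusted p = 0.290 by edgeR). The lowest of the 12 skin libraries held 64.8 CPM of Il18rap and the highest LN library 15.8 CPM, whereas Il18r1 in cKO MC903 skin overlapped its range in LN.

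Ifngr1 in cKO Tregs had 1536, 1560 and 1409 CPM in MC903 skin and 1217, 1562 and 1230 CPM in untreated skin (log2 change 0.17 ± 0.21, adjusted p = 0.655 by edgeR). In WT Tregs it had 1559, 1158 and 1524 CPM in MC903 skin and 1646, 1098 and 1436 CPM in untreated skin, with a log2 change of 0.02 ± 0.21 (adjusted p = 0.969 by edgeR). The groups overlapped in both genotypes. Cxcr3 in cKO Tregs had 33.8, 27.7 and 42.4 CPM in MC903 skin and 26.1, 36.9 and 38.7 CPM in untreated skin, which overlap (log2 change 0.03 ± 0.19, adjusted p = 0.944 by edgeR). The WT Tregs had 54.7, 42.4 and 45.0 CPM of Cxcr3 in MC903 skin and 66.2, 55.6 and 63.7 CPM in untreated skin, which do not overlap, but the log2 change of -0.38 ± 0.19 missed the threshold (adjusted p = 0.228 by edgeR).

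**Figure D2:**
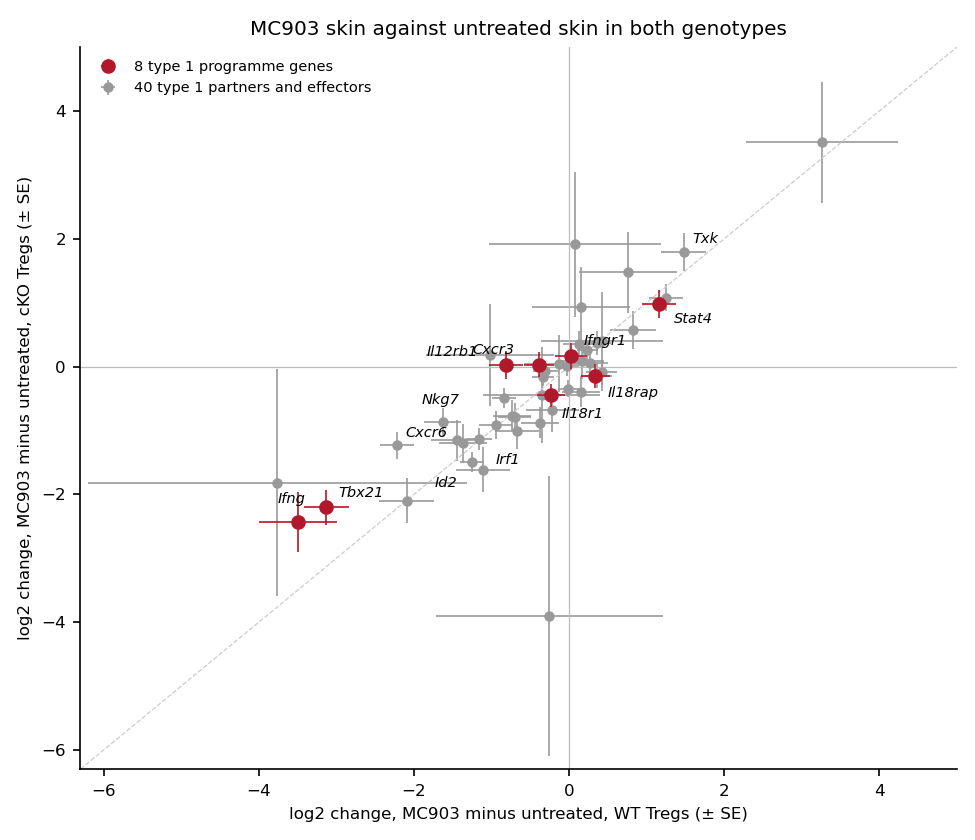
Log2 change of MC903 over untreated skin in cKO Tregs (y axis) and in WT Tregs (x axis), bars ± SE, for the 8 members with enough counts (red) and 40 type 1 partners and effectors (grey). The dashed line marks equal change. Tbx21 (-2.20 in cKO and -3.13 in WT) and Ifng (-2.43 and -3.50) lie at the lower left, Stat4 (0.98 and 1.16) at the upper right, and the other 5 members between -0.45 and 0.17 in cKO and between -0.81 and 0.34 in WT.

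Of the 40 type 1 partners and effectors, 3 rose and 12 fell in cKO Tregs of MC903 skin, with a median log2 change of -0.26, and 3 rose and 10 fell in WT Tregs, with a median of -0.24. In cKO Tregs Id2 fell by 1.50 ± 0.16 on the log2 scale and Irf1, a target of interferon signalling, by 1.14 ± 0.17, while the T cell kinase gene Txk rose by 1.80 ± 0.30. In WT Tregs Cxcr6 fell by 2.22 ± 0.22, Id2 by 1.25 ± 0.16 and Nkg7, a granule protein gene of cytotoxic cells, by 1.63 ± 0.24. Of 24 tested interferon gamma response genes, 1 rose and 3 fell in cKO Tregs. Gbp7, a guanylate-binding protein gene, rose by 0.91 ± 0.24, and besides Irf1 both Cxcl10 and the signalling inhibitor gene Socs1 fell, by 1.26 ± 0.24 and 1.61 ± 0.35. In WT 0 rose and 3 fell, Cxcl10 by 2.26 ± 0.25, Irf1 by 1.16 ± 0.17 and Gbp6 by 1.93 ± 0.39. Of 15 tested genes of the type 2 programme 2 rose and 1 fell in each genotype, and of 12 genes of the type 17 programme 0 rose and 3 fell in cKO and 1 rose and 1 fell in WT. Areg fell by 1.34 ± 0.21 in cKO and by 1.29 ± 0.21 in WT, while Stat5b, a signal transducer of the interleukin 2 receptor, rose by 0.65 ± 0.12 in cKO and 0.61 ± 0.12 in WT. The other type 2 gene that rose was Stat5a in cKO (0.46 ± 0.14) and the chemokine receptor gene Ccr4 in WT (0.96 ± 0.23). Of the type 17 genes, Il21r, the interleukin 21 receptor, fell by 1.04 ± 0.18 in cKO and by 1.23 ± 0.18 in WT. In cKO the ligand-activated factor gene Ahr and the chemokine receptor gene Ccr6 also fell, by 0.99 ± 0.21 and 1.49 ± 0.34, and in WT Batf rose by 0.62 ± 0.15. Gata3 was not called in either genotype (log2 changes -0.17 ± 0.13 in cKO and 0.05 ± 0.13 in WT). Of 12 Treg identity genes 3 rose and 0 fell in each genotype, namely Nrp1 (1.09 ± 0.16 in cKO and 0.69 ± 0.16 in WT), Il2ra, a chain of the interleukin 2 receptor (0.66 ± 0.20 in cKO and 0.91 ± 0.20 in WT), and the T cell receptor subunit gene Cd3d in cKO (0.69 ± 0.17) or Cd4 in WT (0.55 ± 0.14). Of the 4 tested neighbours of Il18r1 and Il18rap in the interleukin 1 receptor cluster, Il1r2 rose, by 0.79 ± 0.20 in cKO and 1.01 ± 0.20 in WT.

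The log2 ratio of Tbx21 to Gata3 counts within a library stood at -6.57 ± 0.39 in cKO MC903 skin and -4.56 ± 0.37 in cKO untreated skin, and at -7.74 ± 0.28 in WT MC903 skin and -4.56 ± 0.30 in WT untreated skin (SD, n = 3 each). The ratio was -4.36 ± 0.40 in LN, so it was lower in both MC903 groups than in any other group, without overlap. The ratio in untreated skin of both genotypes overlapped that in LN, although both genes were higher in WT untreated skin than in LN.

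Sums of markers of other cells were compared between the treatments as well. Those of fibroblasts and endothelium overlapped in both genotypes, and those of keratinocytes overlapped in WT but not in cKO. The summed CPM of 11 fibroblast and endothelial markers was 187 to 506 in cKO MC903 skin and 45.7 to 213 in cKO untreated skin, and 143 to 405 in WT MC903 skin and 95.9 to 180 in WT untreated skin. That of 12 keratinocyte markers was 48.3 to 182 in cKO MC903 skin and 231 to 370 in cKO untreated skin, and 96.5 to 364 in WT MC903 skin and 280 to 650 in WT untreated skin. Summed over 9 B cell markers, CPM was 11.8 to 21.3 in cKO MC903 skin and 7.85 to 11.4 in cKO untreated skin, and 14.96 to 15.03 in WT MC903 skin and 8.46 to 13.4 in WT untreated skin, higher in treated skin without overlap in both genotypes. Of 8 tested B cell markers 0 were called in either genotype. In each genotype 0 of 11 tested keratinocyte markers rose and 1 fell, and 1 of 10 tested fibroblast and endothelial markers rose and 0 fell. Of 11 tested macrophage, dendritic and Langerhans cell markers 1 rose in cKO and 0 were called in WT. The same held for 7 tested mast cell, basophil and granulocyte markers, with 1 higher in cKO and 0 called in WT. Without the 3 libraries with the highest fibroblast and endothelial sums, a choice made after seeing the data, the log2 change of Tbx21 was -2.55 in cKO and -3.21 in WT, and that of Ifng -2.29 in cKO and -3.34 in WT, all still called by edgeR (adjusted p = 0.00143, 3.18e-04, 0.0342 and 0.0102). The log2 change of Stat4 was 0.93 in cKO, no longer called (adjusted p = 0.0635), and 1.09 in WT (0.0317). Among the libraries left, the fibroblast and endothelial sums in cKO were 195 and 187 in MC903 skin and 95.2 and 45.7 in untreated skin. These no longer overlapped, whereas the cKO sums of all libraries did. In WT they were 147 and 143 in MC903 skin and overlapped the 95.9 to 180 of untreated skin. The part of the transcripts of any of these cells was not tested, and treatment and site cannot be told apart.

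**Figure D3:**
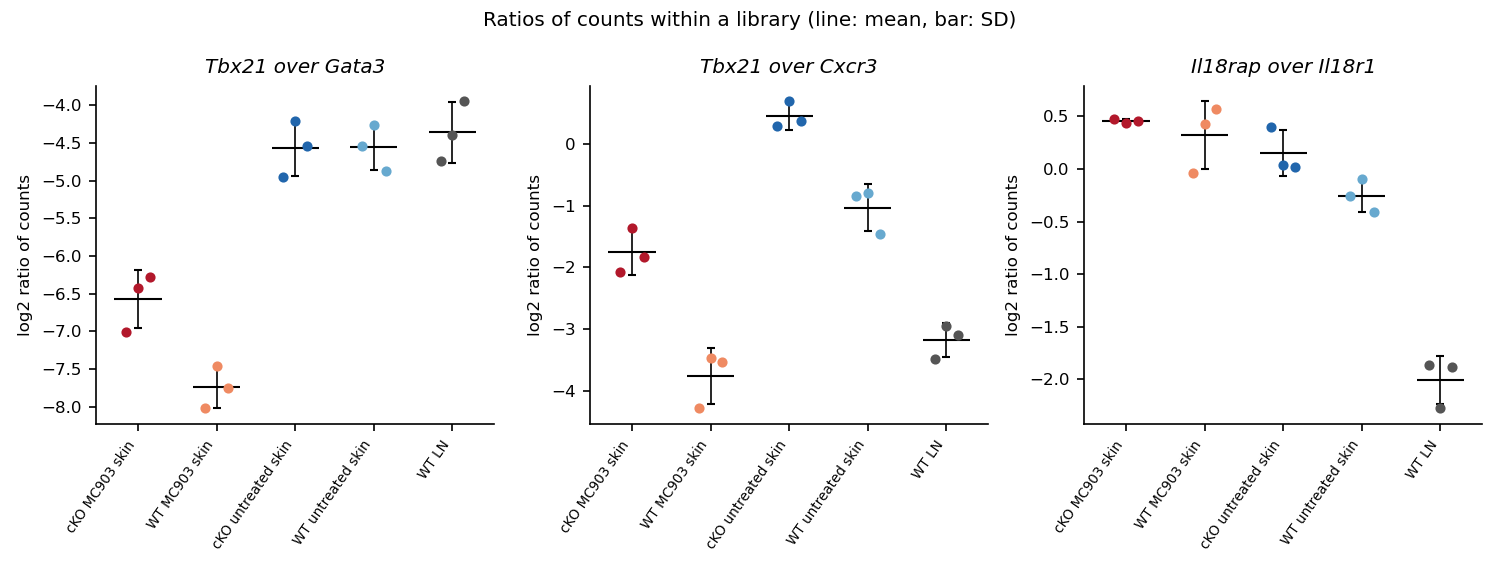
Log2 ratios of counts within a library for Tbx21 over Gata3, Tbx21 over Cxcr3 and Il18rap over Il18r1, by group. Points are libraries, the line is the mean and the bar the SD of 3. Tbx21 over Gata3 is lowest in WT MC903 skin (-7.74), Tbx21 over Cxcr3 is highest in cKO untreated skin (0.45), and Il18rap over Il18r1 is lowest in LN (-2.01).

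cKO and WT Tregs were compared within each treatment to ask what differs where Rora is floxed. Tbx21 was higher in cKO Tregs of MC903 skin, and over both treatments Tbx21 was higher and Cxcr3 lower. In MC903 skin 1 of the 8 members with enough counts was called by edgeR's quasi-likelihood test, adjusted by Benjamini-Hochberg, against 0.258% of all genes, 0.0810% being higher. In untreated skin 0 of the 8 were called, against 0.803% of all genes. There 3 members had an unadjusted p under 0.05, against 11.5% of all genes, and DESeq2 called 1, Cxcr3. Averaged over both treatments 1 rose and 1 fell, against 1.75% of all genes. The median log2 change of these 8 was 0.0983 in MC903 skin, 0.11 in untreated skin and 0.03 averaged, and that of all genes was -0.01, -0.00489 and -0.00884. Libraries of the 2 genotypes did not overlap for 2 members in MC903 skin, against 16.0% of all genes, and for 4 in untreated skin, against 13.6%.

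Tbx21 in MC903 skin had 7.996, 10.7 and 11.97 CPM in cKO and 2.80, 3.83 and 3.88 CPM in WT. All cKO libraries lay above all WT ones, and the gene was 2.91-fold higher (log2 change 1.54 ± 0.28, SE over 3 libraries per group, adjusted p = 0.0233 by edgeR). The call was fragile: it ended without replicate 1, 2 or 3 of WT MC903 skin (0.170, 0.0998 and 0.0717) or either of cKO MC903 replicates 2 and 3 (0.104 and 0.131), with only the compared groups in the fit (0.0728), with limma-voom (0.0970), and without the 3 libraries with the highest fibroblast and endothelial sums (0.142). The log2 change remained between 1.40 and 1.69 when any 1 library was left out. In untreated skin Tbx21 had 31.8, 59.6 and 49.9 CPM in cKO and 37.1, 32.1 and 23.2 CPM in WT. These overlap and the log2 change of 0.61 ± 0.26 was not called (adjusted p = 0.380 by edgeR). Averaged over both treatments it rose 2.11-fold (log2 change 1.08 ± 0.19, adjusted p = 0.00575 by edgeR), and it was called whichever of the 12 libraries was left out (0.00321 to 0.0250).

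Cxcr3 in MC903 skin had 33.8, 27.7 and 42.4 CPM in cKO and 54.7, 42.4 and 45.0 CPM in WT. The highest cKO library lay just below the lowest WT one, and the log2 change of -0.45 ± 0.19 was not called (adjusted p = 0.676 by edgeR). In untreated skin it had 26.1, 36.9 and 38.7 CPM in cKO and 66.2, 55.6 and 63.7 CPM in WT. These were clearly apart, with a log2 change of -0.87 ± 0.20, yet the adjusted p of 0.0509 by edgeR fell just short. DESeq2 (0.00348), a filter of 50 counts in 3 libraries (0.0417) and no filter beyond 1 count (0.0383) each put it past the threshold. It stayed short by edgeR whichever library of these groups was left out (0.0682 to 0.172). Without the 3 libraries with the highest fibroblast and endothelial sums it also stayed short (log2 change -0.71, adjusted p = 0.180 by edgeR). Averaged over both treatments Cxcr3 fell by 0.66 ± 0.14 on the log2 scale (adjusted p = 0.0186 by edgeR), a call that ended without cKO MC903 replicate 1 or 2 (0.0559 and 0.0575) or WT MC903 replicate 1 (0.0758). Averaged over treatments the gene of T-bet and that of CXCR3 therefore moved in opposite directions. The log2 ratio of Tbx21 to Cxcr3 counts was -1.76 ± 0.36 in cKO MC903 skin and -3.76 ± 0.45 in WT MC903 skin, and 0.45 ± 0.21 in cKO untreated skin and -1.03 ± 0.37 in WT untreated skin (SD, n = 3 each), with no overlap within a treatment.

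Ifng in MC903 skin had 8.08, 3.20 and 3.77 CPM in cKO and 3.40, 0.557 and 1.36 CPM in WT, which overlap. The log2 change of 1.50 ± 0.48 was not called (adjusted p = 0.376 by edgeR). In untreated skin it had 26.0, 27.2 and 28.005 CPM in cKO and 17.9, 22.2 and 20.1 CPM in WT, apart but with a log2 change of only 0.43 ± 0.44 (adjusted p = 0.769 by edgeR). The averaged log2 change was 0.97 ± 0.33 (adjusted p = 0.198 by edgeR). It was called without WT MC903 replicate 1 (1.42, adjusted p = 0.0199), the WT library of that treatment with the most Ifng.

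None of the interleukin and interferon receptor genes among the members was called between the genotypes. Il12rb1 in untreated skin had 15.2, 21.7 and 17.4 CPM in cKO and 33.4, 28.8 and 28.1 CPM in WT, which do not overlap, but its log2 change of -0.73 ± 0.22 was not called (adjusted p = 0.185 by edgeR). In MC903 skin its log2 change was 0.11 ± 0.22 and the groups overlapped. Il18rap in untreated skin had 98.3, 82.3 and 85.1 CPM in cKO and 64.8, 76.3 and 76.2 CPM in WT, which do not overlap (log2 change 0.29 ± 0.19, adjusted p = 0.599 by edgeR), and in MC903 skin its log2 change was -0.19 ± 0.19. Il18r1 had log2 changes of -0.35 ± 0.18 in MC903 skin and -0.12 ± 0.18 in untreated skin, Stat4 of 0.15 ± 0.22 and 0.33 ± 0.22, and Ifngr1 of 0.09 ± 0.21 and -0.06 ± 0.21, none of them called and all with overlapping libraries. Summed Il12rb2 counts were 57 in cKO and 39 in WT MC903 skin, and 48 in cKO and 31 in WT untreated skin. Those of Eomes were 14 in cKO and 9 in WT MC903 skin, and 0 in cKO and 1 in WT untreated skin.

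Whether genotype alters the response to MC903 was tested as an interaction, (cKO MC903 minus cKO untreated) minus (WT MC903 minus WT untreated). It called 0.00% of the 13578 genes, hence 0 of the 8 members, by edgeR's quasi-likelihood test, adjusted by Benjamini-Hochberg. At an unadjusted p under 0.05 it gave 765 genes (5.63%) and 2 members, and DESeq2 called 17 genes. The 2 members were Tbx21 (0.93 ± 0.38, adjusted p = 0.866) and Il12rb1 (0.84 ± 0.31, adjusted p = 0.866). Ifng had an interaction of 1.07 ± 0.65 (adjusted p = 0.888). The interaction called 0 genes of each of the other lists. A difference between the genotypes in the response of these genes was therefore not shown, nor was equality.

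**Figure D4:**
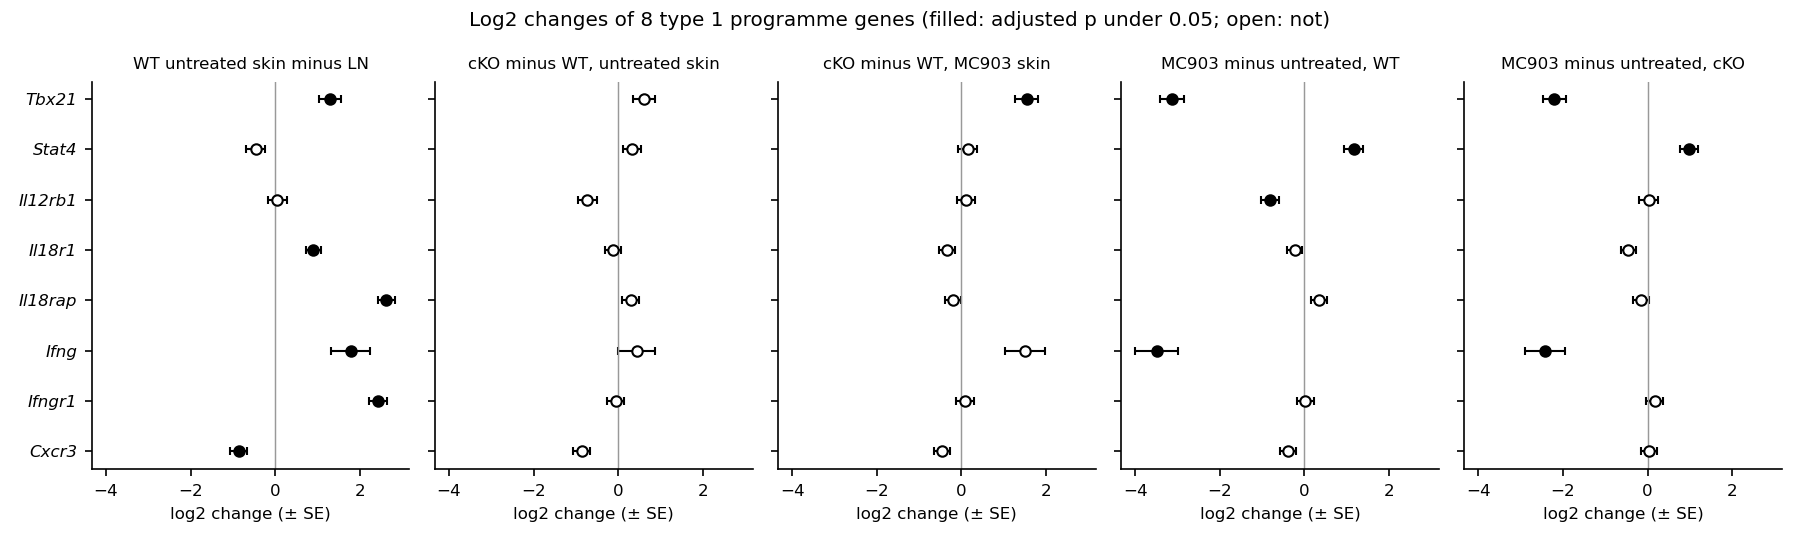
Log2 change ± SE of the 8 members with enough counts in 5 comparisons, 1 panel each. Filled points have an adjusted p under 0.05 by edgeR's quasi-likelihood test, open ones do not. Tbx21 is filled in 4 of the 5 panels, and cKO over WT in untreated skin has no filled point.

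Of the 40 type 1 partners and effectors, 2 rose and 0 fell in cKO Tregs of MC903 skin, 3 rose and 2 fell in untreated skin, and 4 rose and 3 fell averaged. The protease gene Gzmb rose by a log2 change of 1.90 ± 0.23 in MC903 skin and of 2.11 ± 0.23 in untreated skin. Nkg7 rose by 1.92 ± 0.24 in MC903 skin and 1.16 ± 0.23 in untreated skin. In untreated skin Il6st, the shared receptor chain of the interleukin 6 family, rose by 1.05 ± 0.20, while Runx1 fell by 0.88 ± 0.16 and Cxcr6 by 0.95 ± 0.21. Of the 24 interferon gamma response genes tested, 0 were called in MC903 skin, in untreated skin or averaged, with median log2 changes of 0.36, 0.21 and 0.27. Of the 15 type 2 genes tested, 0 were called in MC903 skin and 1 in untreated skin, Gata3 (log2 change 0.59 ± 0.13, adjusted p = 0.0448 by edgeR), and averaged 1 rose and 1 fell, Gata3 (0.48 ± 0.09) and Stat5a (-0.39 ± 0.10). Of the 12 type 17 genes, 0 rose and 1 fell in MC903 skin and 1 rose and 1 fell in untreated skin and averaged. The chemokine receptor gene Ccr6 fell by 4.47 ± 0.36 in MC903 skin and fell by 3.27 ± 0.34 in untreated skin, and the gene that rose was Ahr (1.13 ± 0.21 in untreated skin and 0.83 ± 0.15 averaged). None of the 12 Treg identity genes and none of the 4 tested neighbours in the interleukin 1 receptor cluster was called between the genotypes.

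The summed CPM of the 19 markers of CD8, NK, gamma-delta T and innate lymphoid cells was 22.6 to 40.04 in cKO MC903 skin and 17.3 to 23.9 in WT MC903 skin, and 18.7 to 30.2 in cKO untreated skin and 13.9 to 17.8 in WT untreated skin. It was thus higher in cKO without overlap in untreated skin. Of the list 7 genes were tested and 0 were called in either treatment. Most of the sum was Cd8b1, with 18.0 to 21.2 CPM in cKO MC903 skin and 8.73 to 17.6 CPM in WT MC903 skin. Cd8a did not exceed 1.65 CPM in any skin library, Ncr1 was at 0 in all of them, and Klrb1c was at 0 but for 6 counts in 1 WT MC903 library. The summed CPM of 12 macrophage, dendritic and Langerhans cell markers was 83.8 to 218 in cKO MC903 skin and 23.1 to 73.8 in WT MC903 skin. In untreated skin that sum overlapped, at 46.5 to 95.2 in cKO and 28.6 to 191 in WT. Of 11 tested genes of that list 0 were called in either treatment. Of 11 tested keratinocyte markers 0 rose and 1 fell in cKO in each treatment and averaged. Their list's summed CPM overlapped between the genotypes in both treatments, at 48.3 to 182 in cKO and 96.5 to 364 in WT MC903 skin. In untreated skin it was 231 to 370 in cKO and 280 to 650 in WT. The part of these cells in the genotype differences was not tested.

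Within the 12 skin libraries, the genes most alike in pattern to the members were looked for among tested genes with a mean log2 CPM of at least 3. These are descriptions over 12 libraries that share treatment, genotype and site, with no p. Tbx21 was closest to Ccl5, a chemokine gene of type 1 and cytotoxic cells (Pearson r = 0.96), Ifng to Gna13 (0.96), Stat4 to S1pr1, the receptor for exit from tissues (0.98), and Cxcr3 to Grb7 (0.90). Il18r1 was closest to Rsl1d1 (0.93), Il12rb1 to Qpctl (0.91), Ifngr1 to P2ry10 (0.89) and Il18rap to Spata5 (0.85). The closest gene of Eomes (Zfp87, 0.85) rests on sparse counts and is no finding. Among the members themselves, Tbx21 had an r of 0.90 with Ifng, -0.73 with Stat4 and -0.03 with Cxcr3.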

How the data were processed

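Libraries were prepared with SMART-Seq v4 and sequenced from one end to 75 bp on a NextSeq instrument, per the labels' protocols. Per the submitters' processing notes, TopHat2 2.0.6 did the alignment, mm9 was the genome and DESeq2 was used. How reads were assigned to genes, and whether by strand, is not given in the sources used here, so counts of overlapping or near-identical genes are uncertain. The authors deposited raw counts per gene and library. They also deposited their own comparison of LN with skin, which per the file headers gives a mean signal, a log2 change and its error, a score (the change over that error), and p-values before and after adjustment. Its signs were turned to skin over LN, and whether its changes are shrunken is not stated.

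The filter was edgeR's filterByExpr over the 5 groups (13578 of 24015 genes passed), and libraries were scaled by TMM (factors 0.903 to 1.26). One model with a mean per group covered all 15 libraries. Contrasts were tested by edgeR's robust quasi-likelihood F statistic, with p-values adjusted by Benjamini-Hochberg over all tested genes and a call at an adjusted p under 0.05 (R 4.3.3, edgeR 4.0.16, limma 3.58.1, DESeq2 1.42.0). The standard error is the size of the log2 change over the square root of F. The common dispersion of 0.138 equals 37.2% variation between replicates. CPM per kilobase used GENCODE M21 exon lengths. Intervals and floors (3 counts) cover counting error only, since amplified reads with no molecular identifier may be copies of 1 molecule. Replicates differed beyond counting noise (chi-square per degree of freedom at least 13.1). Deviations of libraries with the same replicate number correlated between -0.277 and 0.223, and those with different numbers between -0.146 and 0.224. Same-number values were all positive for skin against LN, for genotype in MC903 skin and for MC903 in WT. They were all negative for genotype in untreated skin and mixed for MC903 in cKO. Whether the numbers pair libraries is therefore not settled. The pipeline was tested on simulated data. The share of false calls had to stay under a limit for edgeR and limma-voom and was only recorded for DESeq2.

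The members and lists (partners and effectors, interferon gamma response, type 2, type 17, interleukin 1 receptor cluster, Treg identity, and markers of other cells) were chosen with earlier results of these data known. All members are named, and of each list up to 3 of those called, by smallest adjusted p, or all when 5 or fewer. Gata3 is named besides where it falls outside this rule, chosen after its values were seen. Eomes and Il12rb2, with few counts in skin, are given as counts only. Alternatives were DESeq2, relative log expression factors, filters of 1 count and of 50 counts in 3 libraries, the compared groups alone, the replicate block, weighted limma-voom, and each library left out in turn. A run without the 3 libraries with the highest fibroblast and endothelial sums was chosen after seeing the data. A result on likeness of pattern for 1 member and the level of 1 marker are not reported here.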

Additional observations from a re-analysis of the deposited data

How the results depend on the processing

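Over the 8 members with enough counts, 12 of 16 calls held under every alternative run, and of 40 results not called, 36 stayed so. With 3 libraries per group, and with few counts for Eomes and Il12rb2, small differences were not detectable. Fitted changes and calls of those 2 genes are not reported. The cause of the changes below was not tested. The genotype comparison of MC903 skin called 35 genes, against 140 with DESeq2, 104 with limma-voom, 13 without the 3 libraries with the highest fibroblast and endothelial sums and 22 to 31 with 1 library left out. Its count of members was 0 with only the compared groups, with limma-voom and without those 3 libraries, and 0 to 1 with 1 library left out. In untreated skin 109 genes were called, against 323 with DESeq2, 54 without those 3 libraries and 60 to 133 with 1 left out, and 1 member was called with DESeq2, with a filter of 50 counts, with no filter beyond 1 count and with the replicate block. The averaged genotype effect called 237 genes, against 462 with DESeq2 and 107 without those 3 libraries, and 1 to 2 members with 1 library left out. The interaction called 17 genes with DESeq2, 1 without those 3 libraries and 0 to 1 with 1 left out. MC903 against untreated skin called 1529 genes in cKO, against 2642 with limma-voom and 645 to 1895 with 1 left out, and 1421 in WT, against 541 with only the compared groups, 758 without those 3 libraries and 767 to 1410 with 1 left out. Whether replicate numbers pair libraries is not settled, and the block moved Cxcr3 in untreated skin past the threshold (-0.87, adjusted p = 0.0453 by edgeR). Changes of sign were seen only in results that were not called. With limma-voom these were Cxcr3 (-0.0212) and Il12rb1 (-0.0263) for MC903 in cKO, Ifngr1 for the averaged genotype (-0.0215) and Ifngr1 for MC903 in WT (-0.00919). Without those 3 libraries they were Cxcr3 (-0.30) and Il18rap (0.0272) for MC903 in cKO, and Ifngr1 for MC903 in WT (-0.0360) and for genotype in untreated skin (0.00365). With 1 library left out, Cxcr3 for MC903 in cKO ran from -0.14 to 0.17, Ifngr1 from -0.0591 to 0.0828 averaged, -0.0383 to 0.16 for genotype in MC903 skin, -0.20 to 0.0788 in untreated skin and -0.12 to 0.16 for MC903 in WT. Il12rb1 ran from -0.00237 to 0.30 for genotype in MC903 skin, -0.0836 to 0.18 for MC903 in cKO and -0.0708 to 0.32 for skin against LN. Il18r1 for genotype in untreated skin ran from -0.20 to 0.00186, averaged Il18rap from -0.0273 to 0.10 and the Stat4 interaction from -0.47 to 0.0701.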
